A study of Mus musculus with 2 samples.

Results

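Timm17b, Lrpprc, Cmc2, Ptcd3, Mpst and Maoa are nuclear genes whose protein products act in mitochondria, and each was the nearest gene of 1 peak of the T-cell transcription factor TCF1, the product of Tcf7. These 6 genes were selected on measured values, since the rule asked for genes of mitochondrial import, RNA handling, translation and metabolism with strong peaks, and peak strength was already known from the same table. The rule also asked for promoters shared with neighboring genes to be described, so that paired starts were in view when the genes were chosen. Their 6 peaks were among 779 in the peak list, and the 6 genes were among 579 protein-coding genes that were nearest to a peak. The strength of these peaks is therefore given as a description, without a test.

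TCF7-bound DNA was collected by chromatin immunoprecipitation (ChIP) with a rabbit monoclonal antibody to TCF1/TCF7 and sequenced beside sonicated input DNA that had seen no antibody. Both libraries came from a T-cell acute leukemia/lymphoma (T-ALL) line, CD4/CD8 double-positive cells of the genotype Lck-Akt2;Dlx5 transgenic, in which the Lck promoter drives myristoylated Akt2 and the homeobox gene Dlx5 in immature T cells. No other genotype or treatment was analysed here, so that the comparison these libraries allow is ChIP over input. With 1 library of each kind there is no spread between replicates, and the values describe this line only. The labels give the genotype, and the names of the deposited tables give the line as DP352.

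Most proteins of the mitochondrion are encoded in the nucleus, made in the cytosol and imported through translocases of the outer and inner membranes. Inside, they keep and copy the small mitochondrial genome, stabilize and translate its mRNAs, and assemble the respiratory chain from subunits of both genomes. TCF1 is the main TCF/LEF protein of thymocytes; it binds DNA through an HMG box and recruits β-catenin when Wnt signaling is active. A ChIP peak places the protein, or a complex that holds it, near a stretch of DNA, and gives no level of expression. Of 15 T-cell marker genes looked up, only Cd8a was the nearest gene of a peak. The summit of that peak lay 33 bp from a start of another protein-coding gene. None of the 15 markers, Cd8a included, had a start within 1000 bp of a summit. With 1 of 15 nearest to a peak, against 2.64% of all protein-coding genes, these markers were not used to check the cell type.

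Of the 6 summits, 5 lay within 1000 bp of an annotated transcription start site (TSS) of a protein-coding gene, against 61.0% of all 779 summits. For 4 of the 6, starts of protein-coding genes lay within 1000 bp on both strands, against 9.76% of all peaks. Among peaks within 1000 bp of a start these were 4 of the 5, against 16.0% of 475. Since shared promoters were named in the rule, these counts are a description of the chosen genes. The 76 peaks with starts on both strands also had a higher median fold enrichment than the 399 with starts on a single strand, 19.2 against 11.8, and strength was part of how the 6 were selected. In all 4 the outermost starts of the pair pointed away from each other without the genes overlapping, a head-to-head layout in which neighboring genes share 1 stretch of promoter DNA, and 50 of the 76 peaks (65.8%) had it.

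The DNA outside annotated exons is shown for these peaks because 4 of the 6 lay near paired starts, and so that the other peaks, of Lrpprc and Maoa, can be read beside them. The first set holds the stretch between the exons of the paired genes that contained the summit, at Cmc2 and Cenpn and at Ptcd3 and Polr1a. Sequences are the plus strand of GRCm38 (mm10) from RefSeq, in lower case, with capitals on the SP1/KLF motif GGGCGGGG. The summit was at position 159 of the Cmc2 stretch, chr8:116921456-116921715, and at position 149 of the Ptcd3 stretch, chr6:71908774-71909052.
Cmc2/Cenpn: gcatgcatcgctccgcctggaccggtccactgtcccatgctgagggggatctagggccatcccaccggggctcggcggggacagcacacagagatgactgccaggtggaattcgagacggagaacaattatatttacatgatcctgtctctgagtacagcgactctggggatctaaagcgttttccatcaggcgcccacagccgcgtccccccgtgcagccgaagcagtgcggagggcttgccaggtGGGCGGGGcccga
Ptcd3/Polr1a: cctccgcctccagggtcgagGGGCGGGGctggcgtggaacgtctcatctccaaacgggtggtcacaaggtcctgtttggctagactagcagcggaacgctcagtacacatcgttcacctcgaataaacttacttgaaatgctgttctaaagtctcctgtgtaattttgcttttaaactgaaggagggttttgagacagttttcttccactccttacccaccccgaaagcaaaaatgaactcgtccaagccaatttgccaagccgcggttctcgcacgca

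At Timm17b, Mpst and Lrpprc the summit lay in an annotated exon, and the adjoining stretch upstream is given in its place. These are the bases between Timm17b and its neighbor Pqbp1 that lie outside the exons of GENCODE and RefSeq, chrX:7899270-7899335, the bases of the Mpst peak before the outermost Mpst start, chr15:78406267-78406415, and those of the Lrpprc peak before its outermost start, chr17:84790790-84790975. Capitals in Lrpprc mark the TCF motif CTTTGAA, the sole match to a TCF motif within 250 bp of any of the 6 summits. The stretches at Timm17b and Mpst held no searched motif.
Pqbp1/Timm17b: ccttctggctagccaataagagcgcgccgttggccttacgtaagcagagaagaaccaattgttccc
Mpst: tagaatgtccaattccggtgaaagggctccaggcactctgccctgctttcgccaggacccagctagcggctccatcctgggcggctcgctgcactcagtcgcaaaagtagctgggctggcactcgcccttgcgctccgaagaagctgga
Lrpprc: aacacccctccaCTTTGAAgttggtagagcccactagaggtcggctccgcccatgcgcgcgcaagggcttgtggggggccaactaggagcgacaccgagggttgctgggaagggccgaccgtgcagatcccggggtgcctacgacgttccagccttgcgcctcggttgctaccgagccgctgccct

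The Maoa peak, which lay apart from any annotated start, is shown over the 300 bases around its summit, chrX:16618266-16618565, with the summit at position 150. Capitals mark the cAMP response element (CRE) TGACGTCA, which lay 116 bp from the summit.
Maoa: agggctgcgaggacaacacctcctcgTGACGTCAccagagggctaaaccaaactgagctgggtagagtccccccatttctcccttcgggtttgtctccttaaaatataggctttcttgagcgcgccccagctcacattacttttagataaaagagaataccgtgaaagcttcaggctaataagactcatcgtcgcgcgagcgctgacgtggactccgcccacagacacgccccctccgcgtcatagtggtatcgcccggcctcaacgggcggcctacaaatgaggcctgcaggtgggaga

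**Figure D1:**
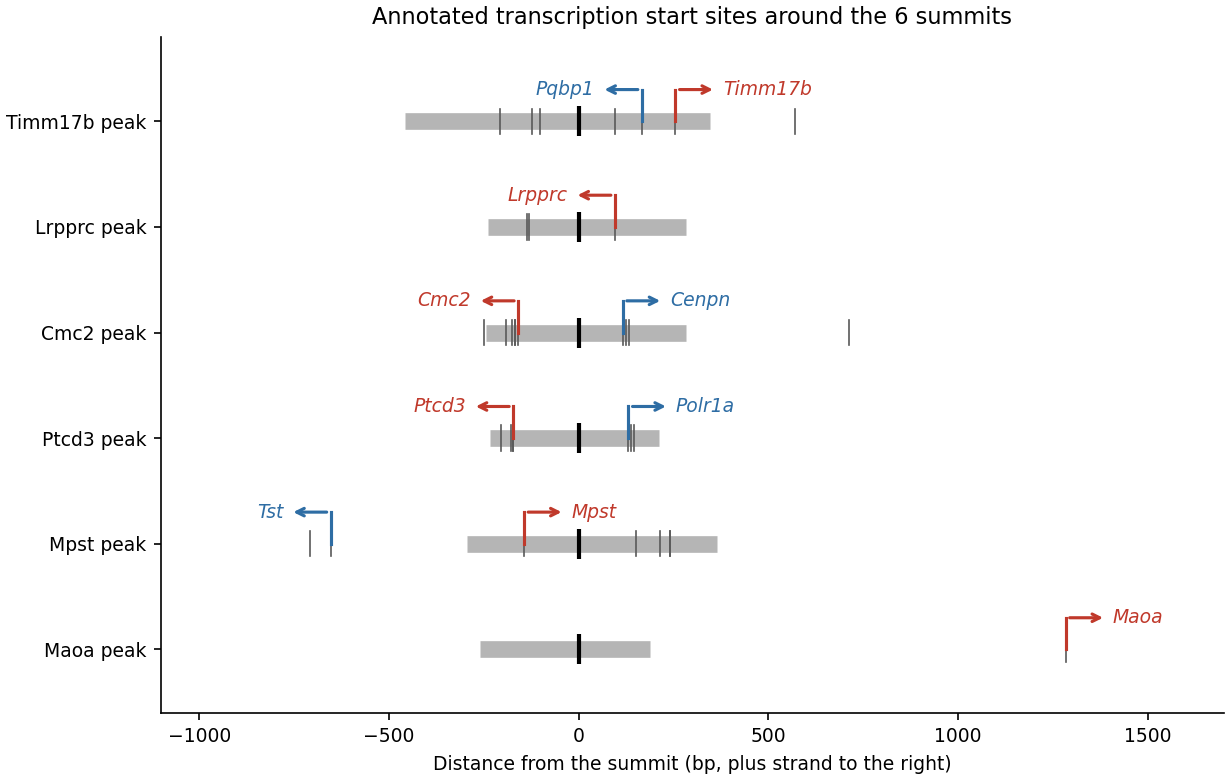
Annotated starts around the summits of the 6 peaks. The x axis is the distance from the summit in bp with the plus strand to the right, grey bars are the peaks, thick black ticks the summits and thin ticks the starts of annotated transcripts, and arrows give the outermost start and direction of the listed gene (red) and of a neighbor (blue). Pairs of arrows point apart at Timm17b, Cmc2, Ptcd3 and Mpst, Lrpprc has no neighbor within 1000 bp, and the Maoa start lies 1283 bp from its summit.

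Peak strength was described by the number of ChIP fragments over the summit and by the fold enrichment of MACS2, which sets the ChIP pileup at the summit against the local input background, each plus 1. Fragments are given with an exact 95% Poisson interval, which covers counting error only. Across the 6 peaks the fragments ranged from 217 to 554 (median 476), against a median of 113 over all peaks, and fold enrichment from 19.1 to 61.8 (median 39.0), against 8.93. The selection rule carried no numeric threshold. Ptcd3 had the lowest fold of the 6, and 7 listed genes of mitochondrial proteins that were not selected, Dlst at 34.3-fold the highest, exceeded it.

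Timm17b encodes a subunit of TIM23, the translocase that carries proteins with a presequence across the inner membrane. Its peak, chrX:7898645-7899449, was 805 bp long and had 369 fragments at the summit (332 to 409). With a local input background of 2.13 it had the highest fold enrichment of all 779 peaks, 61.8, and a −log10 q-value of 290. By fragments the same peak ranked 135. The background of 2.13 was the lowest value in the list, read here as the genome-wide floor of the peak caller, and applied to 26 of the 779 peaks (3.34%), so that the rank by fold rests on a background that was not measured locally above that floor. Such floor values stood at 6 of the 31 peaks on the X chromosome (19.4%) and at 20 of the 748 on the other chromosomes (2.67%), and the median background was 3.82 against 6.0.

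The Timm17b summit lay 255 bp upstream of the Timm17b start and inside a UTR exon of Pqbp1, which encodes a polyglutamine-binding protein that acts in splicing and is read from the other strand. Pqbp1 had 5 annotated starts within 1000 bp, the nearest 97 bp from the summit and the outermost 167 bp. The outermost starts of the pair were 88 bp apart, the closest of the 4 pairs. The summit was thus nearer to starts of Pqbp1 than to that of Timm17b, and the peak covered all 5 of the former and the outermost start of the latter. A further Timm17b start, 569 bp from the summit, was 222 bp beyond the edge of the peak. The nearest-gene label in this case names 1 gene of a pair.

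Lrpprc encodes a pentatricopeptide-repeat protein that, with its partner Slirp, stabilizes mitochondrial mRNAs and keeps them polyadenylated. Its peak, chr17:84790455-84790975, had 478 fragments at the summit (436 to 523), a background of 5.0 and a fold enrichment of 41.8, which ranked 7 by fold and 42 by fragments. It was the sole peak of the 5 promoter peaks without a start on the other strand within 1000 bp. The summit was 96 bp downstream of the outermost annotated start, that of a retained-intron transcript, and 135 bp upstream of the start of the protein-coding transcript. The peak therefore covered the beginnings of both.

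Cmc2 encodes a small cysteine-motif protein of the intermembrane space that is needed to build cytochrome c oxidase, complex IV of the respiratory chain. Its peak, chr8:116921371-116921897, had 498 fragments at the summit (455 to 544), a background of 5.09 and a fold enrichment of 42.9, the sixth highest of the list. The neighbor Cenpn, which encodes an inner kinetochore protein that binds the CENP-A nucleosome, starts on the plus strand 116 bp from the summit, and Cmc2 on the minus strand 159 bp from it. The summit was intergenic, inside the 275 bp between these starts. It was thus placed between a gene of the respiratory chain and a gene of the centromere.

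Ptcd3 encodes a pentatricopeptide-repeat protein of the small subunit of the mitochondrial ribosome. Its peak, chr6:71908689-71909133, had 473 fragments at the summit (431 to 518), close to the number at Lrpprc. With an input background of 12, the highest of the 6 and above the median of 6.0 over all peaks, the fold enrichment was 19.1, which ranked 182 by fold against 48 by fragments. The summit was intergenic, 172 bp upstream of Ptcd3 on the minus strand and 131 bp upstream of Polr1a on the plus strand, which encodes the largest subunit of RNA polymerase I. The starts of the pair were 303 bp apart. Here a gene of mitochondrial translation and a gene of ribosomal RNA synthesis faced away from a common peak.

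Mpst encodes mercaptopyruvate sulfurtransferase, which moves sulfur from mercaptopyruvate to thiol acceptors and is a source of hydrogen sulfide. Its peak, chr15:78406267-78406924, had the highest fragment number of the 6, 554 (509 to 602), a background of 7.0 and a fold enrichment of 36.3. It ranked 9 of 779 by fragments and 23 by fold. The summit lay 144 bp downstream of the outermost Mpst start, in a UTR exon, and 152 bp upstream of the next annotated start. Tst, the neighboring gene on the minus strand, encodes thiosulfate sulfurtransferase (rhodanese), a mitochondrial enzyme of the same family. Its start was 653 bp from the summit and 360 bp beyond the edge of the peak, and the gap between the paired starts was 509 bp. Of the 4 pairs this was the widest and the sole pair in which the peak reached the start of only 1 gene.

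Maoa encodes monoamine oxidase A, the flavoenzyme of the outer mitochondrial membrane that oxidizes serotonin and norepinephrine. Its peak, chrX:16618156-16618602, had the lowest fragment number of the 6, 217 (189 to 248), a background of 3.0 and a fold enrichment of 28.6, and it ranked 234 by fragments and 91 by fold. The summit was intergenic and 1283 bp upstream of the only annotated Maoa start, with the edge of the peak 1096 bp from the gene. No start of another protein-coding or noncoding gene lay within 1000 bp. Maoa was the sole gene of the 6 whose peak did not touch an annotated start.

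**Figure D2:**
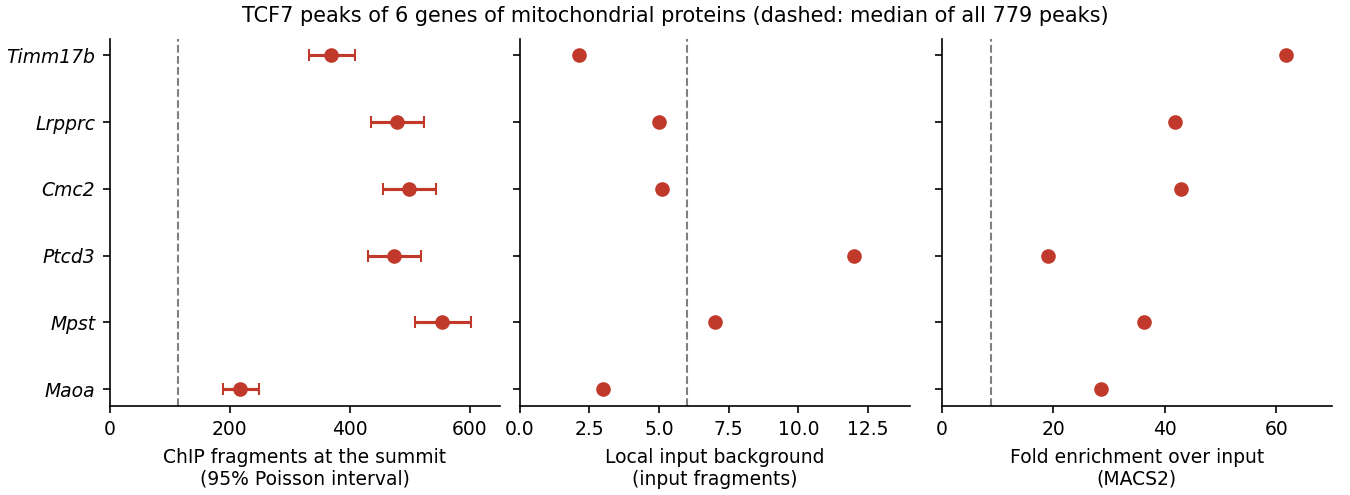
ChIP fragments at the summit, local input background and fold enrichment of the 6 peaks. Points are the values of 1 ChIP library over 1 input library, bars in the left panel are exact 95% Poisson intervals, and dashed lines are the medians of all 779 peaks (113 fragments, 6.0 input fragments and 8.93-fold). Timm17b leads in fold at the lowest background, and Ptcd3, with the highest background, has the lowest fold at a fragment number next to that of Lrpprc.

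Ordered by fragments the peaks were Mpst, Cmc2, Lrpprc, Ptcd3, Timm17b and Maoa. The Poisson intervals of neighbors in this order overlapped for Mpst and Cmc2 (ratio 1.11), Cmc2 and Lrpprc (1.04) and Lrpprc and Ptcd3 (1.01). They did not overlap for Ptcd3 and Timm17b (1.28) or for Timm17b and Maoa (1.70). These intervals describe counting error in 1 ChIP library and are no test of a difference between the peaks. By fold enrichment the order was different, with Timm17b highest and Ptcd3 lowest. The fold enrichment of Timm17b was 3.24 times that of Ptcd3, its fragments were 0.78 times and its background 0.177 times those of Ptcd3, so that this difference in fold came with a lower background and with fewer, not more, ChIP fragments. Cmc2 had 2.25 times the fold of Ptcd3 with 1.05 times its fragments and 0.424 times its background. When the median background of all peaks, 6.0, was put in place of the local value for each, an alternative added after the data had been seen, fold enrichment became 41.5 for Mpst, 37.3 for Cmc2, 35.8 for Lrpprc, 35.4 for Ptcd3, 27.7 for Timm17b and 16.3 for Maoa. With a common background this order is that of the fragments by construction.

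**Figure D3:**
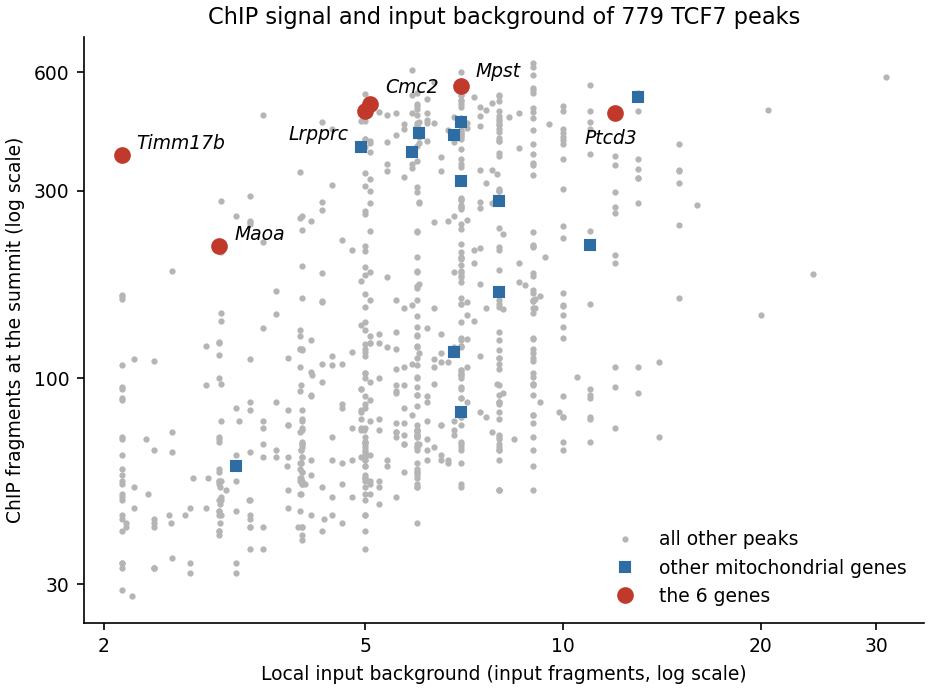
ChIP fragments at the summit against the local input background for all 779 peaks, both on a log scale. Each point is 1 peak, with the 6 genes in red, the 13 other peaks nearest to a listed gene of a mitochondrial protein as blue squares and all other peaks in grey. Timm17b sits at the left edge, on the floor of 2.13, and Mpst, Cmc2, Lrpprc and Ptcd3 sit between 473 and 554 fragments at backgrounds of 5.0 to 12.

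The sequences under the summits were read over the summit base and 100 bp to each side. GC content ranged from 44.8% at Ptcd3 to 61.2% at Cmc2 with a median of 55.0%, close to the 54.7% of all peaks. It was below the medians of peaks within 1000 bp of a start (58.7%), peaks with starts on both strands (60.0%) and all promoter windows (58.7%). The ratio of observed to expected CpG had a median of 0.804 and ran from 0.545 at Timm17b to 1.04 at Maoa. All peaks had a median ratio of 0.512, peaks with starts on both strands 0.822 and all 21935 protein-coding promoter windows of that length 0.600. The median of the 6 windows was thus close to that of the peaks with paired starts, and the Maoa window had the highest CpG ratio of the 6 although it lay apart from any annotated start.

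No summit of the 6 had a TCF motif (CTTTG followed by AA, by TT, by AT or by TA, on either strand) within 100 bp, against 15.7% of all peaks and 8.49% of all promoters. Peaks with a start within 1000 bp carried the motif in 9.89%, and peaks farther away in 24.7%. Within 50 bp the count was also 0, against 9.63% of all peaks, and within 250 bp it was 1, the Lrpprc motif on the plus strand 109 bp from the summit, against 28.8%. The lack of these letters in a window does not show that the factor was absent there, and whether it bound the DNA directly was not tested.

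Of 9 further motifs, read on both strands, the SP1/KLF motif GGGCGGGG was present at 1 of the 6 summits, Cmc2 at 89 bp, against 8.86% of all peaks and 18.6% of promoters. The NFY motif, CCAATC or CCAATG, was present at 1, Timm17b at 49 bp, against 11.6% of peaks and 21.0% of promoters. None of the 6 held the ETS motif CCGGAAG (4.88% of peaks), the NRF1 motif GCATGCGC (0.899%), the YY1 motif AAGATGGCG (1.41%), the CRE TGACGTCA (0.899%), the ZBTB33 motif TCTCGCGA (0.128%), the E-box CACGTG (3.34%) or the RUNX motif, TGTGGTTT or TGTGGTTA (3.72%). No motif was therefore shared between any of the 6 windows. NRF1 and YY1 are known regulators of nuclear genes of the respiratory chain. In the wider windows of 250 bp a match to NRF1 lay 167 bp from the Cmc2 summit and a match to YY1 179 bp from the Ptcd3 summit, which also had an SP1/KLF match at 121 bp. The E-box at Lrpprc (117 bp), NFY at Cmc2 (107 bp) and the CRE at Maoa (116 bp) also lay in these wider windows only. The shares given for these 9 motifs are for 100 bp. No share of all peaks stands beside the matches within 250 bp, so that they are a description only.

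The other nuclear genes of mitochondrial proteins were taken from 9 lists of 428 genes in all, ordered by role. Of these, 19 were the nearest gene of a peak (4.44%), the 6 selected genes included, against 579 of 21938 protein-coding genes (2.64%). The 6 were chosen for having peaks, so that this count is a description. By list, 4 of 45 genes of protein import, 4 of 48 of mitochondrial DNA and RNA handling, 3 of 83 of the mitochondrial ribosome, 2 of 47 of respiratory chain assembly, 2 of 83 respiratory chain subunits, 3 of 30 of sulfur and amine metabolism and 1 of 29 of the tricarboxylic acid cycle and pyruvate were nearest to a peak. None of 35 translation factors and tRNA synthetases and none of 28 regulators of fusion, fission and biogenesis was. Regions below the limit of the peak caller carry no value, so that binding below it was not measured at the other genes.

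Among the 13 listed genes that were not selected, fold enrichment ran from 5.48 to 34.3 (median 19.3) and fragments from 60 to 517. In import these were Tomm70a, a receptor of the outer membrane, at 9.74-fold, Timm22, the channel for carrier proteins, at 7.92-fold, and Immp1l, an inner membrane peptidase, at 7.73-fold. Timm17b had been selected for its strong peak, so that its higher value is no finding. In DNA and RNA handling they were Mterf3, a regulator of mitochondrial transcription and ribosome assembly, at 31.4-fold, the pentatricopeptide-repeat gene Ptcd2 at 20.8-fold and Polg, the catalytic subunit of the mitochondrial DNA polymerase, at 16.5-fold, beside 41.8 for Lrpprc, which had been selected for strength. In the ribosome list Dap3 at 28.6-fold and Mrps11 at 27.8-fold, both of the small subunit like Ptcd3, stood above it in fold. Their fragments, 375 (338 to 415) and 415 (376 to 457), were fewer than the 473 of Ptcd3, with intervals that overlapped for Mrps11 and did not for Dap3.

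Surf1, an assembly factor of complex IV like Cmc2, had 5.48-fold with 82 fragments. Of the respiratory chain subunits only Uqcrh at 19.3-fold and Uqcrq at 9.57-fold, both of complex III, were nearest to a peak. Uqcrh had 517 fragments (473 to 564), more than all of the 6 but Mpst, over a background of 13. Its interval overlapped those of Mpst, Cmc2, Lrpprc and Ptcd3. Like Ptcd3, Uqcrh thus joined a high fragment number to a high background and a moderate fold. Aldh4a1, an enzyme of proline breakdown, had 29.3-fold with 447 fragments, close in fold to Maoa, and Dlst, a subunit of the oxoglutarate dehydrogenase complex, had 34.3-fold with 388.

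**Figure D4:**
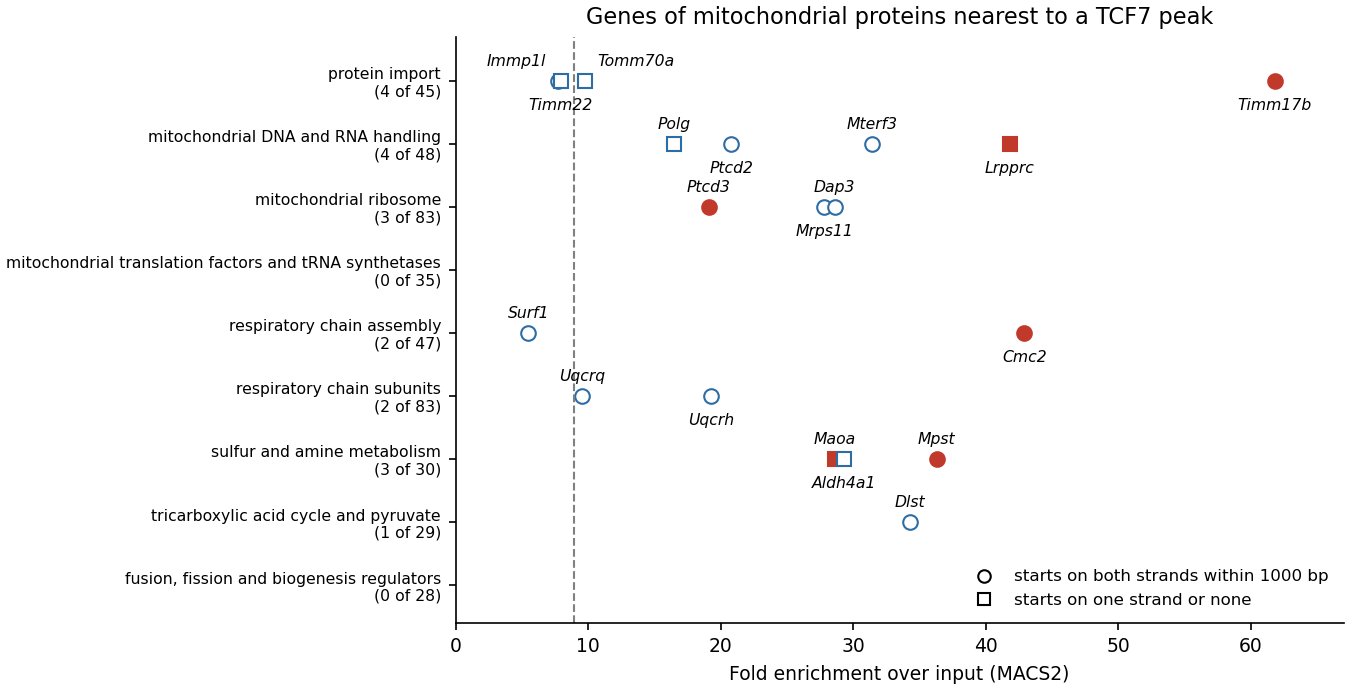
Fold enrichment of the 19 listed genes that were nearest to a peak, by list. The x axis is the fold enrichment over input, filled red symbols are the 6 selected genes and open blue symbols the other 13, circles mark summits with starts on both strands within 1000 bp and squares the rest, and the dashed line is the median of all peaks, 8.93. Counts beside each list give genes nearest to a peak of all listed, with 0 of 35 and 0 of 28 for the empty lists.

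Starts on both strands were also found at 9 of the 13 peaks that were not selected (69.2%), against 9.76% of all peaks and 16.0% of peaks at a start. Without overlap of the genes, the starts pointed away from each other at 5 of the 13 (38.5%), against 6.42% of all peaks. Head-to-head starts were also more frequent in the lists themselves, peaks aside: 87 of 428 listed genes (20.3%) had a start within 1000 bp of that of a neighbor facing away without overlap, against 1487 of all 21938 protein-coding genes (6.78%). Among the lists the share ran from 14.3% for regulators of fusion, fission and biogenesis to 25.5% for respiratory chain assembly. The layout seen at 4 of the 6 genes was therefore also more common across genes of mitochondrial proteins than across all genes, and its part in the count among the peaks was not tested.

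Paired genes gave some peaks a listed gene on each strand. The Mrps11 peak lay 95 bp upstream of the nearest start of Mrps11 and 129 bp upstream of that of Mrpl46, so that a gene of the small and a gene of the large subunit of the mitochondrial ribosome shared it. The Ptcd2 peak lay 35 bp upstream of Ptcd2 and 46 bp upstream of Mrps27, and the Mpst peak faced Mpst and Tst. In these 3 peaks both genes of the pair encode mitochondrial proteins. By contrast the partners of Timm17b, Cmc2 and Ptcd3 encode nuclear proteins, as does Ash1l, a histone methyltransferase, beside Dap3. The remaining listed peaks with starts on both strands had Prox2, Ptdss1, Lrrc41, Gdf9, Elp4 and Surf2 as partners. These were not sorted by the location of their proteins. Counting every gene with a start within 1000 bp of a summit in place of the nearest gene, the listed genes numbered 23 (5.37%), against 2.52% of all protein-coding genes. Added in this way were Mrpl46, Mrps27, Tst, the ATP synthase gene Atp5h at a 17.3-fold peak assigned to Kctd2, and Bcs1l, an assembly factor of complex III, at a 5.16-fold peak assigned to Zfp142, while Maoa was no longer counted.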

How the data were processed

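TCF7 ChIP-seq and input DNA of Lck-Akt2;Dlx5 transgenic T-ALL cells were analysed, 1 library each. Per the submitters' processing notes and the methods, the authors used Bowtie2 for alignment to mm10 and, in Chipster, MACS2 for the peaks. Their versions and parameters were not given in the sources used here. Each pileup at a summit is a coverage signal that the authors deposited after scaling the ChIP library to the input library. Fold enrichment was deposited by the authors as a ratio of pileup to local background, each plus 1. The p-values and q-values were deposited as their −log10.

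Background was recovered from fold and pileup; −log10 Poisson p-values recomputed from it differed from those deposited by at most 0.03% for the 755 of 779 peaks that could be computed. Pileups were multiples of 0.522 within 0.005, the value of 1 ChIP fragment, so that 1 scaled unit equals 1.92 fragments. Precision follows from the fragments counted, and exact Poisson intervals at 95% cover counting error only. Total depth was not analysed here. Members were found by the Ensembl identifier in the nearest-gene table of the authors, in which 14 identifiers had no match. TSS of 21938 protein-coding genes came from GENCODE vM21, sequences from RefSeq GRCm38.p6, and positions count from 1. A summit within 1000 bp of a TSS was called a promoter peak. Motifs were read on both strands within 100 bp of the summit. Python 3.11.15, numpy 2.4.6, pandas 2.3.3, scipy 1.17.1 and matplotlib 3.10.9 were used, and the motif, distance and interval steps were tested on simulated data. No test across groups was possible without replicates.

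The 6 genes and the 9 lists were chosen with earlier results of these data known. Named were the 6 genes, genes with a TSS within 1000 bp of their summits, and up to 4 genes of each list with the highest fold. Neighbors of other listed genes, Kctd2, Zfp142 and the listed genes found by a TSS alone were named after their values were seen. Of the listed names, 2 had no match and 1 was matched by a synonym. Alternatives were distances of 500 and 5000 bp, a TSS inside the peak, stricter thresholds (−log10 q-value or fold of at least 10), motif windows of 50 and 250 bp, a longer TCF motif, ranks by fragments or q-value and, added after seeing the data, head-to-head starts only and a common background.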

Additional observations from a re-analysis of the deposited data

How the results depend on the processing

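The number of the 6 genes with a summit near a start stayed at 5 with 500 bp or with a TSS inside the peak, and was 6 with 5000 bp, where Maoa was added. The number with starts on both strands was 4 with 5000 bp and with head-to-head starts only, the latter added after the data had been seen, and 3 with 500 bp or with both starts inside the peak, where Mpst was lost because the start of Tst is 653 bp away. No gene had a TCF motif within 50 or 100 bp or by the longer motif, and 1, Lrpprc, had one within 250 bp. Listed genes nearest to a peak numbered 19, and also 19 at a −log10 q-value of at least 10, 14 at a fold of at least 10, 17 with the nearest gene within 1000 bp and 23 by TSS. The share of all genes fell under the first 3 of these from 2.64% to 2.32%, 1.33% and 1.66%. Ranks moved with the measure: Timm17b ranked 1 by fold, 135 by fragments and 36 by q-value, and Ptcd3 182, 48 and 113. No library could be left out, since each was the only one of its kind, and no paired analysis was possible because there was 1 ChIP and 1 input library. Fragments at a summit set the precision, from 189 to 248 at Maoa to 509 to 602 at Mpst, and the spread between cultures or animals was not measured.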
